A study of Homo sapiens with 3 samples.

Results

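The contacts described here are those of the promoters of GATA4, GATA5 and GATA6, zinc finger transcription factors of the heart, and of ZFPM1 and ZFPM2, which encode the cofactors FOG1 and FOG2. They were measured by promoter capture Hi-C (PCHi-C) in hESC-CMs, the cardiomyocytes obtained by differentiation of human embryonic stem cells of the line WA09 (H9), in 3 biological replicates of 1 group. All 3 came from 1 cell line at 1 passage, were enriched in medium with lactate in place of glucose, and were checked for purity with the markers myosin heavy chain and TNNT2, as the authors state. PCHi-C ligates DNA that lies close together in crosslinked nuclei, after cutting with HindIII, and enriches ligation products for fragments that carry a promoter. A promoter fragment was a HindIII fragment in the first column of the calls that held an annotated transcript start of one of the 5 genes, and a promoter-interacting region (PIR) was any fragment called together with it. CHiCAGO scores the excess of read pairs over a background that falls with distance, and pairs with a score under 5 are not listed, so that an unlisted pair may still have been in weaker contact. Of the 5 genes, 4 had a promoter fragment. They made 106 of the 200587 contacts of the union of the 3 replicates, from 4 of its 19075 promoter fragments. Captured fragments without any call are not among these 19075, and all ranks and shares of promoter fragments below leave them out.

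GATA factors bind the sequence AGATAA and its close relatives through paired zinc fingers. GATA4 and GATA6 act early in heart formation and have partly overlapping roles there, and GATA5 is best known from the endocardium and the cardiac cushions. FOG1 and FOG2 do not contact DNA at these sites by themselves but bind the amino-terminal zinc finger of a GATA factor and can turn its target genes up or down. FOG2 is the FOG factor known from the embryonic heart, and FOG1 is best known from red blood cells and platelets. In such genes, DNA far from the start can control transcription, and a contact call says only that 2 fragments met more often than the background model predicts.

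The sequences of the contacts with the highest scores, and of a contact between a GATA gene and microRNA genes, lie on chromosome 18, on either side of GATA6. Upstream of it, the contacts fell on MIR133A1HG, the host gene of the muscle microRNAs miR-1 and miR-133a, which lies in an intron of MIB1. By exact match of the RefSeq hairpins to GRCh37, MIR133A1 is at chr18:19405659-19405746 and MIR1-2 at chr18:19408965-19409049, both on the minus strand, and each hairpin matched 1 place on the chromosome. The mature microRNAs are shown from RefSeq (GRCh38.p14), 5′ to 3′, with the seed, bases 2 to 8, in capitals. The seeds of the 3 differ, so they form no shared seed group.
hsa-miR-1-3p: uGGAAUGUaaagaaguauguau
hsa-miR-133a-3p: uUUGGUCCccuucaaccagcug
hsa-miR-133a-5p: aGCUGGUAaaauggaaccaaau
Between the fragments that hold these hairpins, and next to them, lie 2 very short PIRs of GATA6, of 156 bp at chr18:19407458-19407613 and of 213 bp at chr18:19410586-19410798. They are shown whole (GRCh37, plus strand), because they scored higher than the longer fragments beside them. A match to AGATAA, searched on both strands, is in capitals, and the shorter fragment holds none.
PIR of 156 bp: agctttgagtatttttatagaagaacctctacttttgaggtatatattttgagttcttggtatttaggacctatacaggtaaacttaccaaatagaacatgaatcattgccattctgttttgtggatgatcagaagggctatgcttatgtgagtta
PIR of 213 bp: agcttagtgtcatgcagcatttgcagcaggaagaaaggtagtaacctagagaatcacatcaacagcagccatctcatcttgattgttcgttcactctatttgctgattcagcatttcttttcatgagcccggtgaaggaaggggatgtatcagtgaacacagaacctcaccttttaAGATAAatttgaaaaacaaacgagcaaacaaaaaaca
Downstream of GATA6, the PIR with the highest score of all 4 promoter fragments spans 2907 bp at chr18:20140699-20143605. A stretch of 300 bases of it, chr18:20142583-20142882 (GRCh37, plus strand), is shown around the first of its 2 matches to AGATAA, here read as TTATCT on the plus strand and set in capitals.
PIR of 2907 bp, stretch: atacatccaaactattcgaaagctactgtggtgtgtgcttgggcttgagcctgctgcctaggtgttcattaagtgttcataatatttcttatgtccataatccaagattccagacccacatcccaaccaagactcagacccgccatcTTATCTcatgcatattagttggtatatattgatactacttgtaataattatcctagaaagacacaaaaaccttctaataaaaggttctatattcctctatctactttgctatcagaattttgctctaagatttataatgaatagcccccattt
The RefSeq promoter of GATA6 (GRCh38.p14, plus strand, 250 bases before the start in lower case and 50 after it in capitals) matched GRCh37 exactly at chr18:19749300-19749599, inside the promoter fragment. It is shown because every GATA6 contact below was read from the fragment that holds it.
GATA6 promoter: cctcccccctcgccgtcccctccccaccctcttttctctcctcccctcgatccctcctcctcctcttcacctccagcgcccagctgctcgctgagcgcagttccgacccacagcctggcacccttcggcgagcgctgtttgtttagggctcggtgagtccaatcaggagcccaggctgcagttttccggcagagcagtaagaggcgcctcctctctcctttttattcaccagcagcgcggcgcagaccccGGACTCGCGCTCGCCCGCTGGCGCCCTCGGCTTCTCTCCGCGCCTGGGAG
No AGATAA lies in these 300 bases, and 10.3% of the 35116 RefSeq promoters of this length hold one on either strand.

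The promoter fragment of GATA6 (gene at chr18:19749550-19782491, plus strand, in GENCODE v44 lifted to GRCh37) was chr18:19745218-19754117 and held both annotated transcript starts. It had 17, 21 and 15 PIRs in replicates 1, 2 and 3, a mean of 17.7 ± 3.06 (SD, n = 3). In the union it had 25, more than 88.5% of all promoter fragments, whose median was 6. Every replicate called 13 of them, while 2 were seen in 2 replicates and 10 in 1, so that 52.0% were called in all 3 (95% Wilson interval 33.5 to 69.97%). In the background, 24.0% of all contacts of the series were, over all distances. At 200 to 400 kb it was 13 of 21 for GATA6, against 36.3% in the series. No GATA6 PIR lay nearer than 209 kb, and none overlapped GATA6 itself. Such a gap was common, since 52.7% of the 3082 promoter fragments with 20 or more contacts had no PIR nearer than 200 kb.

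Distances here are between fragment midpoints, and upstream and downstream refer to the direction of transcription. The contacts of GATA6 fell into separate blocks, a block being a run of PIRs on 1 side of the promoter with no gap over 50 kb. The block with the highest scores began 371 kb downstream of the promoter fragment and ended at 402 kb, in the interval between CTAGE1 and RBBP8. It held 6 of 8 HindIII fragments, 4 of them called in all 3 replicates. Its leading PIR, the 2907 bp fragment shown above at 392 kb, scored 39.12, 34.98 and 31.73, a mean of 35.3 ± 3.70 (SD, n = 3). It overlaps an exon and a transcript start of the lncRNA gene ENSG00000289624. Of the 13561 contacts over 200 to 400 kb called in all 3 replicates, 99.7% had a lower mean score. The fragment adjacent to it, chr18:20143606-20149025, scored 20.99, 19.26 and 19.44 (19.9 ± 0.951, n = 3), below the leading PIR in every replicate. The fragment on its other side, chr18:20125908-20140698, scored 11.2 ± 0.995, although at 14791 bp it was the longest of the block. The farthest PIR called in all 3 replicates, chr18:20149026-20149414 at 399.6 kb, scored 7.53 ± 0.793. Scores thus fell on both sides of the 2907 bp fragment.

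The step from the first to the second score of GATA6 was 15.4 points, and the replicates did not overlap. An exact permutation test over the replicates, two-sided, gave p = 0.1, the smallest that 3 against 3 values allow, and 0.3 after Benjamini-Hochberg adjustment over the 12 such steps compared within GATA4, GATA6 and ZFPM2. The next steps down, to chr18:19410586-19410798 and to chr18:20049684-20052297, were also without overlap between replicates, and the last 2 of the 5 leading PIRs overlapped. The scores came from the same libraries, and within each replicate the higher ranked PIR of each of these 4 pairs also scored higher (exact sign-flip test, two-sided, p = 0.25, the smallest it can give). The last pair was 1.09, 0.93 and 0.21 points apart in replicates 1, 2 and 3. The pairs were ranked by the same scores that were then compared, which fixed the sign of each mean difference. Neither test can therefore decide the order.

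**Figure D1:**
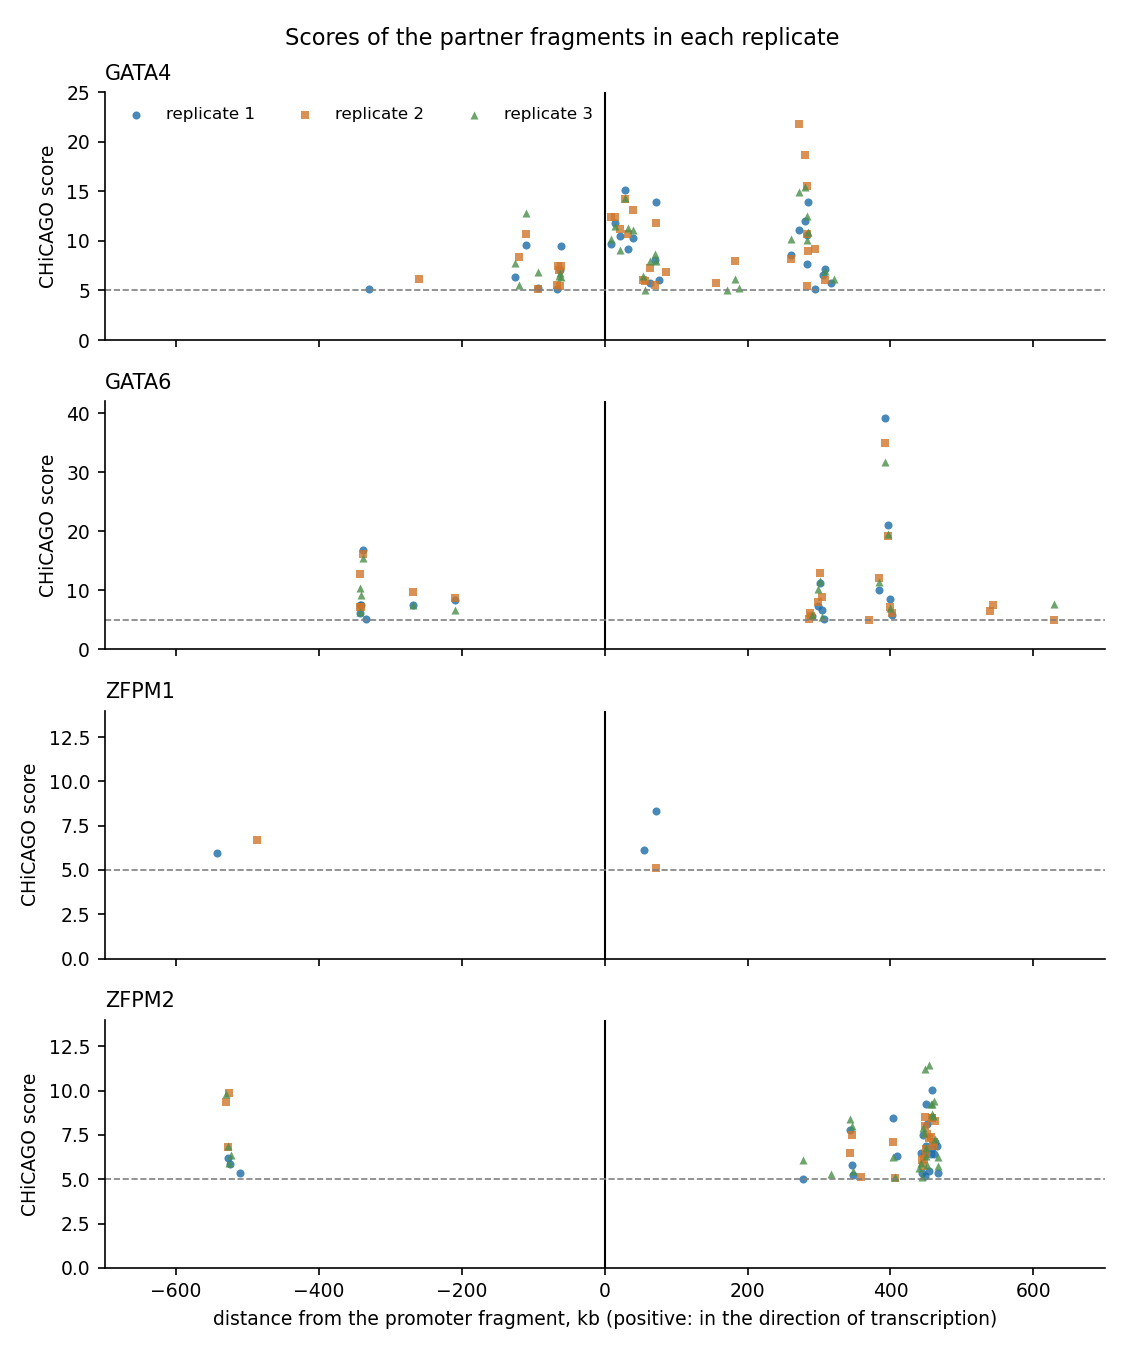
CHiCAGO score of each PIR (y axis) against its distance from the promoter fragment in kb (x axis, positive in the direction of transcription), for GATA4, GATA6, ZFPM1 and ZFPM2, with 1 point per replicate. Scales differ between panels, the dashed line marks the lowest listed score of 5, and 2 PIRs beyond 700 kb are left out. The replicate scores of GATA6 rise to 39.12 at 392 kb, those of GATA4 lie beside the promoter and again near 271 kb, and those of ZFPM2 cluster near 451 kb.

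The other downstream block of GATA6 ran from 285 to 307 kb and held 9 of 12 fragments, of which 3 were called in all 3 replicates. Its leading PIR, chr18:20049684-20052297, scored 11.18, 12.98 and 11.58. It lies between CTAGE1 and RBBP8 with no annotated protein-coding, lncRNA or microRNA gene over it. The 6 remaining PIRs of this block were called in 1 replicate each. Farther out, 2 fragments at 540 and 544 kb were called in replicate 2 only. A fragment of RBBP8, a gene for a DNA repair protein, 629 kb away was called in replicates 2 and 3 at 5.04 and 7.66.

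Upstream, all 5 HindIII fragments of a run from 343 to 334 kb were called, and 4 of them in all 3 replicates. All 5 overlap exons of MIR133A1HG. The only 1 of them with an annotated start of MIR133A1HG, chr18:19410799-19420449, was called in replicate 1 only, at 5.18. The PIR of 213 bp had the highest score, 16.81, 16.08 and 15.43 (16.1 ± 0.690, n = 3), and only the 2 leading downstream PIRs of GATA6 scored higher. The PIR of 156 bp scored 7.45, 12.77 and 10.41 (10.2 ± 2.67). The fragment with the MIR1-2 hairpin, chr18:19407614-19410585, scored 7.43, 7.16 and 9.13, and the one with the MIR133A1 hairpin, chr18:19405499-19407457, scored 6.22, 7.13 and 6.32. Every one of these 4 PIRs was thus seen in each replicate, and the short fragment outside the hairpins scored above the hairpin fragments in each. Both hairpin fragments were promoter fragments of the capture themselves, although the annotation used here places no transcript start in them. Calls between promoter fragments made up 9.59% of all contacts of the series, and 11 of the 106 contacts here. The MIR1-2 fragment made contact with 3 fragments over GATA6, all in all 3 replicates, and the MIR133A1 fragment with 3, of which 1 was called in all 3. These counts leave out the GATA6 promoter fragment itself. Nearer to the gene, single fragments at 268 and 209 kb upstream were called in all 3 replicates at 8.24 ± 1.31 and 7.92 ± 1.12.

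A further fragment of the capture, chr18:19758342-19760248, lies inside GATA6 and 9.63 kb from its promoter fragment, and carries the start of RNU6-702P, a pseudogene of the U6 small nuclear RNA. Its contacts gave a reading of the same locus from separately captured DNA of the same 3 libraries. It had 35 PIRs, of which 24 were PIRs of GATA6, 96.0% of the 25 of GATA6 and 68.6% of its own. The fragments with the MIR1-2 and MIR133A1 hairpins shared 3 and 1 PIRs with GATA6. Of the 13 GATA6 PIRs called in all 3 replicates, 12 were called from it in at least 1 replicate and 11 in all 3. The exception was chr18:19540178-19540548, at 209 kb upstream, which was not called from it. The 2907 bp PIR again had the highest score, 49.23, 46.65 and 36.65 (44.2 ± 6.64, n = 3). In replicates 1 and 2 these scores lay above every score from the GATA6 promoter fragment, and in replicate 3 the score lay within their range. The PIR of 213 bp scored 12.84, 11.03 and 11.93 from it, below its range from the GATA6 promoter fragment. Among the 11 PIRs called in all 3 replicates from both captured fragments, Spearman's rho of the mean scores was 0.75, given as a description, since both readings came from the same libraries and neighbouring DNA.

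**Figure D2:**
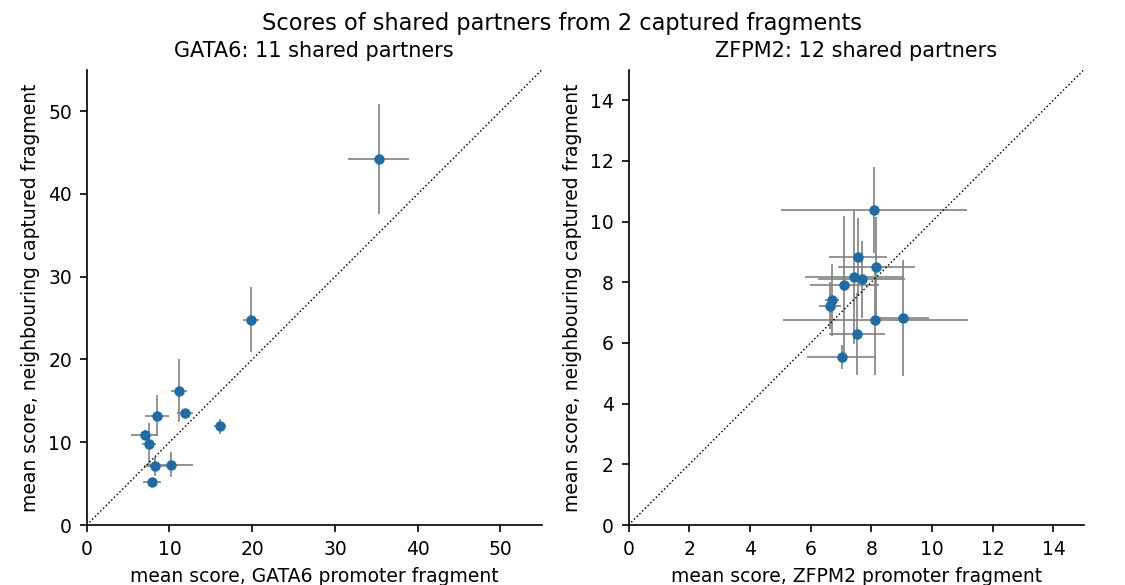
Mean CHiCAGO score of shared PIRs from the member promoter fragment (x axis) and from the captured fragment beside it (y axis), with SD over 3 replicates as bars and equality as a dotted line. The left panel has the 11 PIRs of GATA6 and the right panel the 12 PIRs of ZFPM2 called in all 3 replicates from both, and the PIR at the upper right of the GATA6 panel scored 35.3 and 44.2.

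The GATA4 gene lies at chr8:11534468-11617511 on the plus strand. Of its 8 annotated transcript starts, 2 lay in a promoter fragment, chr8:11531479-11540100. The other starts lay in 3 fragments that were listed only as PIRs of that fragment, among them chr8:11550673-11563689 with 4 starts, so the contacts of those starts were not analysed here, and whether these fragments were captured is not known from the calls. GATA4 had 27, 33 and 29 PIRs in replicates 1, 2 and 3 (29.7 ± 3.06, n = 3) and 41 in the union, more than 95.9% of all promoter fragments. Every replicate called 20 of the 41, while 8 were seen in 2 replicates and 13 in 1, a share in all 3 of 48.8% (34.3 to 63.5%). The background of 24.0% takes in contacts of all distances. GATA4 had 6 of 6 in all 3 at 0 to 50 kb and 6 of 13 at 50 to 100 kb, where the series had 44.9 and 41.4%. It had 1 of 7 at 100 to 200 kb and 7 of 14 at 200 to 400 kb, against 40.7 and 36.3%. Of the 4 genes, GATA4 alone had PIRs within 50 kb of its promoter fragment. Its nearest PIR was at 9.39 kb and its median distance 119 kb, against 339 kb for GATA6.

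Along the GATA4 gene itself and into NEIL2, from 9.39 to 85.8 kb, 13 of 14 HindIII fragments were PIRs and 9 were called in all 3 replicates. The highest score in this stretch came from a fragment of 310 bp in an intron of GATA4, chr8:11563690-11563999, at 15.09, 14.26 and 14.33 (14.6 ± 0.460, n = 3). The alternative start fragments scored 11.9 ± 0.442 for chr8:11549256-11550672 and 10.3 ± 1.06 for chr8:11550673-11563689. The third start fragment, chr8:11608011-11615311, was called in replicate 1 only at 6.06. The promoter fragment was thus in called contact with each other fragment that holds an annotated start of GATA4, with the nearest scoring highest in every replicate. Another intronic fragment, chr8:11573957-11576117, scored 10.30, 13.11 and 11.11 (11.5 ± 1.45). A fragment of 705 bp over an exon of GATA4, chr8:11607306-11608010, scored 13.88, 11.82 and 7.96, and 4 other promoter fragments contacted it too.

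Beyond the gene, contacts resumed from 260 to 321 kb downstream. They ran from past CTSB, the gene for the protease cathepsin B, into a row of beta-defensin genes. Here 12 of 14 fragments were PIRs, 7 of them in all 3 replicates. The leading PIR, chr8:11800439-11813761 at 271 kb, overlaps an exon and a transcript start of the gene ENSG00000287798. It scored 11.13, 21.78 and 14.97 (16.0 ± 5.39, n = 3), and the adjacent chr8:11813762-11818631 scored 11.97, 18.67 and 15.38 (15.3 ± 3.35). Both were highest in replicate 2 and lowest in replicate 1, and their replicates overlapped (difference 0.62, exact permutation test, two-sided, p = 1, adjusted p = 1). Their order is thus not settled, and the 310 bp fragment within GATA4 lay inside their range. A pair of very short fragments in the same block, chr8:11819353-11819749 and chr8:11818903-11819352, scored 11.3 ± 1.11 and 11.1 ± 4.01. The promoter fragment of DEFB136, chr8:11820898-11838946, scored 5.19 in replicate 1 and 9.14 in replicate 2. The farthest PIR called in all 3 was chr8:11843998-11845645 at 309 kb (6.72 ± 0.576).

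Between these blocks, from 156 to 188 kb, only 4 of 14 fragments were called and none in all 3 replicates. The best of them, over an exon of CTSB, was called in replicates 2 and 3 at 7.96 and 6.14. Upstream of GATA4, 9 of 13 fragments from 125 to 60.6 kb were PIRs. The farther ones lay over BLK, a gene for a B cell tyrosine kinase, and LINC00208. Those from 66.9 to 60.6 kb lay between BLK and GATA4 with no annotated protein-coding, lncRNA or microRNA gene over them. Of the 9, 4 were called in all 3 replicates, led by chr8:11420465-11429774 over exons of BLK at 9.61, 10.72 and 12.79. The intergenic chr8:11474128-11476322 and chr8:11472719-11474127 were also called in all 3, at 7.77 ± 1.61 and 6.45 ± 0.849. The BLK promoter fragment itself, chr8:11412169-11420464, scored 8.39 in replicate 2 and 5.52 in replicate 3. The promoter fragment beside it, chr8:11408759-11412168, scored 6.37 in replicate 1 and 7.74 in replicate 3.

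Some PIRs of GATA4 were also PIRs of its neighbours, and how common this is over the series was not computed. It shared 19 with the BLK promoter fragment, 46.3% of its own 41 and 30.6% of the 62 of BLK. It also shared 19 with the promoter fragment of RP11-148O21.3 beside BLK, 29.7% of the 64 there, and 18 with the fragment that holds the starts of NEIL2 and C8orf49, 43.9% of its own and 56.3% of the 32 there. These counts take in calls of single replicates. Of the 20 GATA4 PIRs called in all 3 replicates, 7, 6 and 8 were also called in all 3 from these fragments, in the same order. In the other direction, the DEFB136 promoter fragment contacted 4 fragments over GATA4 other than its promoter fragment, 3 of them in all 3 replicates, and the BLK promoter fragment 3, of which 2 in all 3. Of the PIRs of GATA4, 16 of 41 were PIRs of no other promoter fragment, as were 9 of 36 for ZFPM2 and 3 of 4 for ZFPM1. For GATA6, whose captured neighbour lies within its own gene, it was 1 of 25. These differences were not tested.

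The ZFPM2 gene, annotated at chr8:105602961-106816767 on the plus strand, had 10 transcript starts in 8 fragments. Only chr8:106326832-106333706, with 2 starts, was a promoter fragment, and the other 7 were listed in no replicate and not in the merged calls. It had 26, 24 and 29 PIRs (26.3 ± 2.52, n = 3) and 36 in the union, more than 94.4% of all promoter fragments. Every replicate called 17 of them, while 9 were seen in 2 replicates and 10 in 1, a share in all 3 of 47.2% (32.0 to 63.0%) against 24.0% in the background of all distances. At 400 to 600 kb it was 15 of 29 for ZFPM2, against 30.9% in the series. Of the 36, 35 overlapped ZFPM2 as annotated. The exception was chr8:117871530-117872058 at the RAD21 locus, 11541 kb away, called in replicate 2 at 5.20. In the series, 4.29% of all contacts joined a promoter fragment to the body of its own gene. That share covers genes of all lengths, and no comparison was made with genes as long as ZFPM2 or over the same distances. The annotated gene upstream of the promoter fragment, which held 6 of the 35, had no start of a protein-coding transcript.

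Most ZFPM2 contacts lay in 1 long block, from 278 to 467 kb downstream, in introns of ZFPM2 that also hold the antisense gene ZFPM2-AS1. There 29 of 70 fragments were PIRs and 16 were called in all 3 replicates. The leading PIR called in all 3, chr8:106787661-106788385 at 458 kb, scored 10.03, 8.46 and 8.68 (9.06 ± 0.850, n = 3). Its neighbour along the DNA scored 8.17 ± 1.28, and the next in rank, chr8:106778477-106779224 and chr8:106782937-106786584, scored 8.14 ± 3.04 and 8.09 ± 3.06, ahead of chr8:106786585-106787660 at 7.68 ± 1.42. Neighbours in this order overlapped in every case (adjusted p = 1 for each, exact permutation test). On the merged replicates the leading PIR was again highest, at 15.02 against 10.88, 11.01, 10.77 and 10.05 for these next 4. The second highest merged score of ZFPM2 was 11.80, at chr8:105799321-105801965 upstream, which was called in 2 replicates. Of all such highest mean scores over the replicates, that of ZFPM2 was not high, and 43.7% of promoter fragments with a PIR in all 3 replicates had a lower highest mean score. The highest mean scores of GATA4 and GATA6 lay above 80.9% and 97.6% of them.

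On the other side of the ZFPM2 promoter, 6 of 10 fragments from 530 to 511 kb upstream were called, 1 of them in all 3 replicates. This was chr8:105801966-105804381, at 6.21, 6.80 and 6.88. The fragment beside it, chr8:105799321-105801965, was missing from replicate 1 and scored 9.34 in replicate 2 and 9.80 in replicate 3, above it in both. A captured fragment adjacent to the ZFPM2 promoter fragment, chr8:106333707-106334275, had 43 PIRs, 27 of them shared, 75.0% of those of ZFPM2 and 62.8% of its own. The next most, 3, were shared with a promoter fragment of the lncRNA gene ENSG00000253420. All 17 ZFPM2 PIRs called in all 3 replicates were called from it in at least 1, and 12 in all 3. From it, chr8:105799321-105801965 was called in all 3 replicates (10.8 ± 1.21). Spearman's rho of the mean scores over the 12 PIRs was 0.24, against 0.75 for GATA6, a difference that was not tested. Between replicates of the ZFPM2 promoter fragment itself, rho was -0.37 to 0.46 over 17 PIRs. The order of its scores was thus unsteady before any comparison with the captured fragment beside it.

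The ZFPM1 promoter fragment, chr16:88514644-88523474, held all 5 annotated starts of the gene (chr16:88519688-88603439, plus strand). It had 3, 2 and 0 PIRs in replicates 1, 2 and 3 (1.67 ± 1.53, n = 3), and 30.0% of all promoter fragments had fewer than its 4 in the union. None was called in all 3 replicates, which was the state of many promoters, since 51.9% of all promoter fragments had at least 1 PIR in all 3. The PIR called most often, chr16:88591076-88591993 in an intron of ZFPM1 at 72.5 kb, scored 8.32 and 5.09 in replicates 1 and 2. A fragment over ZFPM1 exons at 55.2 kb was called in replicate 1 at 6.14. The promoter fragment of BANP and CA5A, 543 kb upstream, was called in replicate 1 at 5.94, and a fragment of BANP at 486 kb in replicate 2 at 6.69. It shared 1 PIR with the promoter fragment of ZNF469. GATA5 could not be described, because its single start at chr20:61051051 lies in a fragment of 37958 bp, chr20:61030184-61068141, that was listed in none of the sets. The list of captured fragments was not used here, so this fragment, and the unlisted start fragments of ZFPM2, may have been outside the capture or captured without a call.

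**Figure D3:**
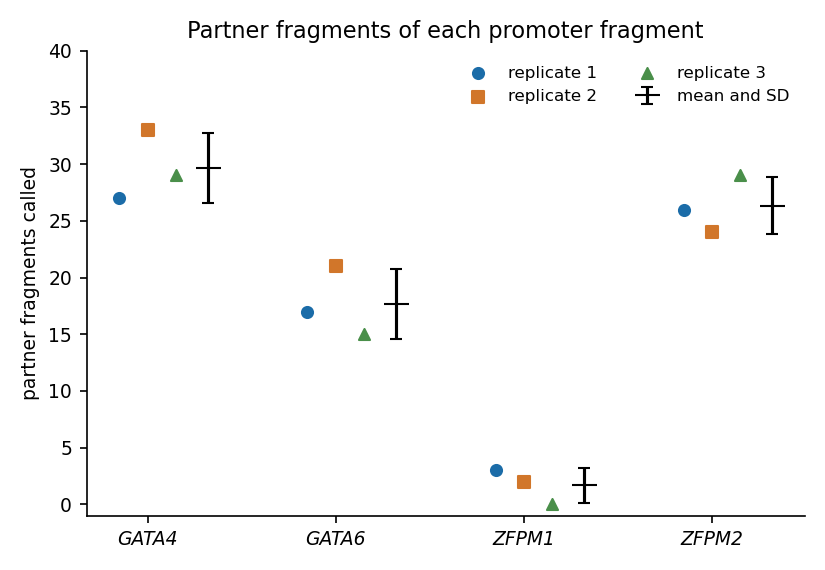
Number of PIRs called for each promoter fragment (y axis) in replicates 1, 2 and 3, with mean and SD over the 3 replicates. GATA4 had 27 to 33 PIRs and ZFPM2 24 to 29, so that their ranges overlapped, GATA6 had 15 to 21 and ZFPM1 had 0 to 3.

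In numbers of PIRs per replicate, the order of the means was GATA4, ZFPM2, GATA6 and ZFPM1. This order turned with the set of calls, since the merged calls held 35 PIRs of ZFPM2, 29 of GATA6 and 28 of GATA4, and in the union a score of at least 10 left 14 of GATA4, 7 of GATA6 and 3 of ZFPM2. GATA4 and ZFPM2 differed by 3.33 PIRs and overlapped (exact permutation test, two-sided, p = 0.3, adjusted p = 0.3 over 6 pairs). Every other pair was apart in all replicates, with an exact permutation p = 0.1, the smallest that the design allows, and adjusted p = 0.12, so no pair passed 0.05. Taken within each replicate, GATA4 exceeded ZFPM2 by 1, 9 and 0 PIRs, and the other 5 differences kept 1 sign in all 3 replicates (exact sign-flip test, two-sided, p = 0.25, the smallest it can give). The numbers come from different captured fragments, whose capture efficiency was not analysed here.

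The share of contacts called in all 3 replicates was 47.2% over the 106 (37.9 to 56.6%), against 24.0% in the series. In the series this share fell with distance, so contacts of the same distance were set beside it. At 0 to 50 kb, 6 of 6 were called in all 3, all of GATA4, where the series had 44.9%. At 50 to 100 kb it was 6 of 15 against 41.4%, and at 100 to 200 kb 1 of 7 against 40.7%. At 200 to 400 kb it was 22 of 41 against 36.3%, of which GATA6 gave 13 of 21. At 400 to 600 kb it was 15 of 34 against 30.9%, and all 15 were of ZFPM2. Adjacent fragments of 1 promoter are not independent, and these shares were not tested.

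**Figure D4:**
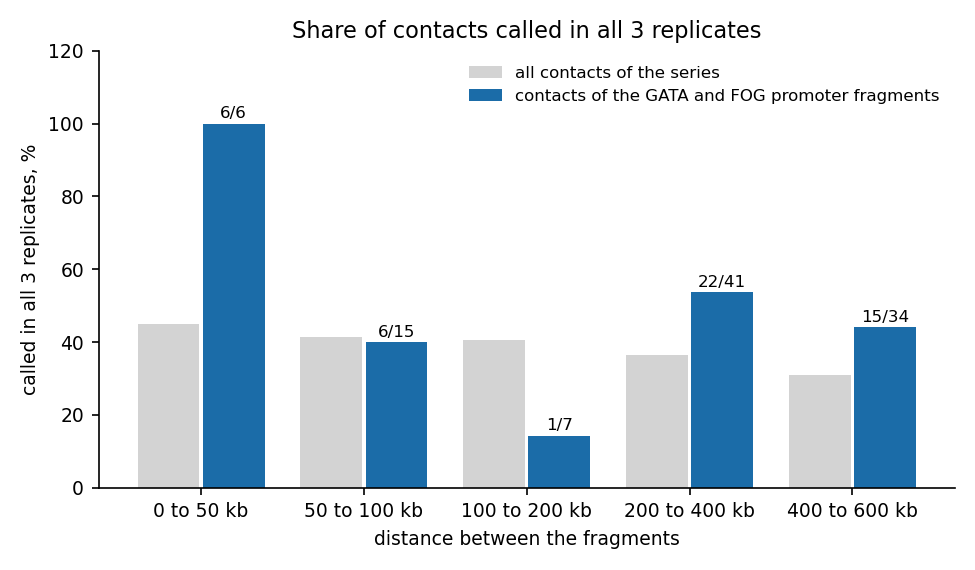
Share of contacts called in all 3 replicates (y axis, %) by distance between the fragments (x axis), for all contacts of the series and for those of the GATA4, GATA6, ZFPM1 and ZFPM2 promoter fragments, with the counts above the bars. The share was above the series at 0 to 50, 200 to 400 and 400 to 600 kb and below it at 50 to 200 kb.

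None of the 106 contacts reached another chromosome, and 3.87% of all contacts in the series did. By counting error alone a count of 0 allows a share of up to 2.83%, but neighbouring contacts of 4 promoter fragments are not independent, and the difference from the series was not tested. Within the PIRs called in all 3 replicates, the order of scores recurred between replicates for GATA6 (Spearman's rho 0.81 to 0.83 over 13 PIRs) and GATA4 (0.64 to 0.72 over 20). For ZFPM2 it was -0.37 to 0.46 over 17 PIRs, whose scores spanned a narrow range. These are descriptions across fragments that share a promoter fragment and a library.

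The motif AGATAA was counted on both strands in the PIRs in the union. It occurred 0.88 times per kb in those of GATA6, 0.44 in those of GATA4, 1.22 in those of ZFPM2 and 0.35 in those of ZFPM1, against 0.77 per kb in all 116592 PIRs of the series. The order followed base composition, which was 40.3, 48.6, 36.5 and 54.5% G and C in the same order, against 42.9% in the series. A match was held by 22 of 25 PIRs of GATA6, 30 of 41 of GATA4, 27 of 36 of ZFPM2 and 2 of 4 of ZFPM1, and by 72.7% of all PIRs, which differ in length. No binding was measured here, and the part of base composition in these counts was not tested.

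**Figure D5:**
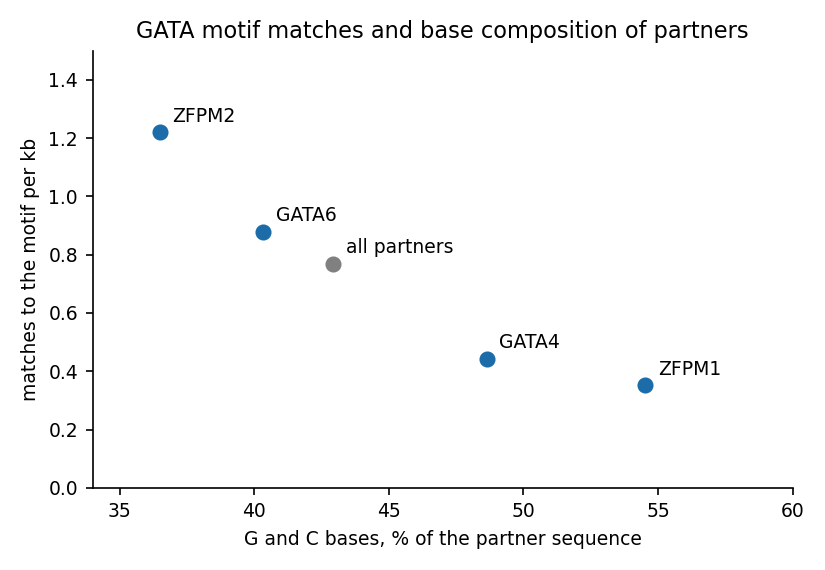
Matches to AGATAA per kb on both strands (y axis) against the G and C content of the same PIR sequence in % (x axis), for the PIRs of each promoter fragment and for all PIRs of the series. Matches were most frequent in the PIRs of ZFPM2 at 36.5% G and C, and least frequent in those of ZFPM1 at 54.5%.

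A list of 41 other genes of the GATA pathway was read in the same way. Of its 4 other GATA family genes, 3 had a promoter fragment, and GATA2 and GATA3 had 27 and 19 PIRs, of which 8 and 9 in all 3 replicates, while GATA1, a factor of blood cells, had 1 PIR and none in all 3. Of 18 partners of GATA4 and GATA6 in cardiac transcription, 16 had a promoter fragment and 12 a PIR in all 3, from 0 in SRF to 44 of 100 in HAND2, a transcription factor of the right ventricle. Of 7 partners of the FOG factors, 6 and 4 did, led by NR2F2, a nuclear receptor of the atria, with 15 of 36 in all 3 over 2 promoter fragments. Of 12 target genes, all had a promoter fragment and 11 a PIR in all 3. NPPA, the atrial natriuretic peptide, had 5 of 15 in all 3, and MYH6, the atrial myosin heavy chain, 16 of 32. NPPB had 1 of 10, TNNC1 had 1 of 6, and BMP10 had 1 PIR and none in all 3. Among all promoter fragments of the series, 51.9% had a PIR in all 3. That share is per fragment and the counts here are per gene, and the difference was not tested. Over the 33 listed genes with 1 promoter fragment the median was 19 PIRs, against 6 for all listed promoter fragments. None of the 37 genes with a promoter fragment lies on a chromosome of the 4 promoter fragments described here, so no contact on the same chromosome could join them.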

How the data were processed

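For hESC-CMs, the PCHi-C calls of each biological replicate (n = 3) and of the replicates merged were used as the authors deposited them. Each line gives 2 HindIII fragments and their CHiCAGO score, a unit without a fixed range that the authors computed with CHiCAGO from reads mapped to GRCh37 with HiCUP. The deposited scores start at 5. No depth is given with them, and none was analysed here. The sets held 112473, 109731 and 110740 contacts in replicates 1, 2 and 3 and 152757 in the merged calls. Of 144398 listed fragments, 144397 had both ends at HindIII sites or chromosome ends of GRCh37, and 1 lay past its chromosome end. Results are for the union of the 3 replicates, with a pair counted once whatever its order. Mean scores of PIRs called in fewer than 3 replicates were not ranked. SDs are between replicates, and Wilson intervals cover counting error only. Genes came from GENCODE v44 lifted to GRCh37. The members and lists were chosen with earlier results of these data known.

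The fragments named are every member promoter fragment and, for each, the 5 PIRs with the highest mean score and the farthest PIR among those called in all 3 replicates, the promoter fragments in contact in 2 or more replicates, and the 3 promoter fragments that shared the most PIRs. Other fragments were named after their values were seen, and the scores from the captured fragments beside GATA6 and ZFPM2 were added at that stage. Differences were compared by exact permutation tests over the 3 replicates, and, as an alternative chosen after seeing the data, within replicates by exact sign-flip tests. Neighbours in rank were ordered by the same scores that were then compared. The software was Python 3.11.15, numpy 2.4.6, scipy 1.17.1 and matplotlib 3.10.9, and the counting was tested on simulated data. Alternatives were score minimums of 7 and 10, each replicate left out, the merged calls, the promoter fragment in the first column only, ordered pairs, starts of protein-coding transcripts, contacts on the same chromosome, and matching within 5 kb.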

Additional observations from a re-analysis of the deposited data

Results flagged for a closer look

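Fragments called on the merged replicates and in no single replicate lay outside the comparisons above. GATA6 had 5 such PIRs and ZFPM2 had 4, while GATA4 and ZFPM1 had none. Those of GATA6 scored 5.14 to 6.34 on the merged replicates, and the nearest, chr18:19570144-19576186 in an intron of LINC01900, lay 177 kb upstream, nearer than any PIR of the single replicates. Those of ZFPM2 scored 5.11 to 6.01.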

How the results depend on the processing

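With a score of at least 7 the 4 promoter fragments had 59 contacts in place of 106, 42.4% called in all 3 replicates and a median distance of 304 kb in place of 319, and with at least 10 they had 24 contacts over a median of 284 kb. Leaving out 1 replicate at a time gave 91 to 98 contacts, a share called in every remaining replicate of 56.1 to 64.5% and a median distance of 317 to 323 kb. Counting a called fragment within 5 kb as a match raised the share to 79.2%. The share of the whole series was not computed under any of these alternatives, so these shares have no background to be set against. The remaining alternatives moved the number of contacts by less than 1.5 times and the share and the distance by less than 1 SD between replicates. The share of the union has no value per replicate. Its SD, 3.46 points, was that of the share of each replicate's own calls found in all 3, 68.5, 62.5 and 68.5%. The 4 contacts of ZFPM1 became 2 without replicate 1, 1 on the merged calls, 1 at a score of at least 7 and 0 at 10. With the replicate as a block, chosen after seeing the data, 5 of 6 differences in numbers of PIRs and 5 of 12 between scores of neighbours in rank kept 1 sign in all 3 replicates, and none passed 0.05, which the block cannot reach. On the merged calls the highest score was 59.31 for GATA6 and 15.02 for ZFPM2, in place of means of 35.3 and 9.06. Contacts that scored under 5 are not listed, whether fragments hold near-identical copies elsewhere was not tested, and all replicates come from 1 cell line.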

Other observations

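The score on the merged replicates stood in a different ratio to the mean of the single replicates at each promoter fragment. Over the contacts called in all 4 sets, the median ratio was 1.08 for the 20 of GATA4 (0.953 to 1.17), 1.35 for the 17 of ZFPM2 (1.28 to 1.66) and 1.59 for the 13 of GATA6 (1.50 to 1.68), so that the ranges of GATA4 and GATA6 did not meet. Over all 48067 such contacts of the series the median was 1.40 and the quartiles 1.19 and 1.56. Among the 1576 promoter fragments with at least 10 such contacts, 8.69% had a lower median ratio than GATA4 and 79.6% a lower one than GATA6. The leading PIR of GATA6 scored 59.31 on the merged replicates against a mean of 35.3, and the leading PIR of GATA4 scored 17.41 against 16.0.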
